A study of Mus musculus with 6 samples.

Results

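Chemokines and their receptors were followed in bulk RNA-seq of CD11b+ cells from mouse tumors, and MCT2 KO was compared with MCT2 CO for ligands and receptors apart. Members were the genes of the count table whose symbol begins with *Ccl*, *Cxcl*, *Cx3cl*, *Xcl*, *Ccr*, *Cxcr*, *Cx3cr*, *Xcr* or *Ackr* and continues with a digit. This gave 61 of 25701 listed genes, of which 38 are ligands and 23 are receptors, the atypical receptors of the *Ackr* series included. The question was whether loss of MCT2 in the host goes with another set of attractant signals in the myeloid cells of the tumor. MCT2 (*Slc16a7*) is a plasma membrane transporter of pyruvate and lactate. All mice were of an MCT2 loxP/loxP; Cre+ line on a C57BL/6 background, in which the mCre-Tg transgene allows deletion throughout the body after tamoxifen. At 8 weeks of age, MCT2 KO mice received tamoxifen at 0.18 mg/g body weight daily for 5 days and MCT2 CO mice received vehicle, and 3 libraries were made from each group. Tamoxifen itself and the deletion therefore cannot be told apart. Each mouse then carried a subcutaneous flank tumor grown for 24 days from 100000 TC1 cells, a mouse lung epithelial tumor line in which nothing was deleted. CD11b+ cells were taken from the digested tumors with magnetic beads, and the labels call them purified macrophages from lung. The sources do not state whether a library came from a single mouse, so p-values measure the spread between these libraries.

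Chemokines are small secreted proteins that guide leukocytes along a gradient through receptors coupled to inhibitory G proteins. Many ligands share a receptor and many receptors bind several ligands, so the family is usually read as axes of ligands and a receptor. Tumor macrophages and monocytes are a rich source of inflammatory chemokines and carry the receptors that bring monocytes from the blood. Atypical receptors bind chemokines without G protein signalling and remove or transport them.

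Total counts ranged from 24863611 to 31713704 per library, and 3 counts corresponded to 0.0921 to 0.126 CPM. CPM are counts scaled to the library size after trimmed mean of M values (TMM) normalization. Of the macrophage markers, 12 of 12 had enough counts to test. Their summed level ran from 8200 to 12350 CPM in MCT2 CO and from 8994 to 16930 CPM in MCT2 KO. Markers of other cells also had enough counts, 8 of 8 for fibroblasts and 10 of 10 for T cells. Being tested therefore does not establish the cell type. Of the labelled lung tissue, the alveolar marker *Sftpc* had 0 to 2 counts per library. Fibroblast markers summed to 2070 to 3424 CPM in MCT2 CO and 1728 to 1842 CPM in MCT2 KO, with MCT2 CO replicate 3 highest. T cell markers were also present, and MCT2 KO replicate 2 had 16.2 CPM in sum against 48.2 to 98.0 CPM in the other 5 libraries. These 2 libraries, MCT2 CO replicate 3 and MCT2 KO replicate 2, stood apart in these 2 sums, and many values are given with and without them. MCT2 KO replicate 1 in turn had the highest macrophage sum, 16930 CPM. The targeted gene *Slc16a7* had 481, 287 and 298 counts in MCT2 CO and 196, 162 and 133 in MCT2 KO, a log2 fold change of -1.05 ± 0.24 (SE). Its adjusted p was 0.370 by the quasi-likelihood test of edgeR, and 0.00908 by DESeq2 on all genes with a count.

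Several central chemokines could not be measured in this count table. The gene lengths of the table are those of whole gene spans, and members that lie wholly inside the span of another listed gene had no counts. *Ccl2*, the monocyte attractant that binds Ccr2, lies on the plus strand of chromosome 11 of GRCm38 from 82035571 to 82037453, wholly inside *Gm17268*, which lies on the minus strand. *Cxcl10*, an interferon-induced ligand of Cxcr3, lies on the minus strand of chromosome 5 from 92346638 to 92348889, inside *Art3* on the plus strand. *Ccl19* and *Ccl21a*, the lymphoid tissue ligands of Ccr7, lie inside *4930578G10Rik*. The same held for 3 receptors: *Cxcr6* inside *Fyco1*, *Ccr10* inside *Cntnap1* and *Ackr4* inside *Acad11*. These 7 genes had 0 counts in all 6 libraries, and the 0 does not show that they were silent.

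A further 4 ligands had 0 counts without lying inside another gene. For *Ccl21b*, *Ccl21d* and *Ccl27b*, between 97.1% and 100% of the 50-base stretches of their transcripts also occur in near-identical copies, so reads from them have no single origin. *Cxcl15* shares no such overlap with another span. *Cxcl11* carries no symbol in the table and so lies outside the rule. The remaining 12 members had too few counts to test. *Ccl17*, a ligand of Ccr4, had 4, 0 and 2 counts in MCT2 CO and 3, 1 and 0 in MCT2 KO, and *Ccr4* itself had 11, 4 and 2 against 0, 5 and 1. *Ccl20*, the ligand of Ccr6, had 10, 8 and 18 counts in MCT2 CO and 10, 5 and 7 in MCT2 KO. No member of this low group had over 18 counts in any library. It also held *Ccl1*, *Ccl24*, *Ccl26*, *Ccl28*, *Cxcl17*, *Ackr1*, *Ackr2*, *Ccr1l1* and *Cxcr1*, and *Ackr1* shares 25.69% of its exons with the span of *Cadm3*. This left 23 ligands and 15 receptors for the test.

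The ligands spanned about 3 orders of magnitude. Levels between genes are compared as CPM per kb of exon, averaged over the groups. The sources do not state whether intron reads were counted. The lengths of the table are whole gene spans, and *Ccl2* had 0 counts although 0 of its 50-base stretches occur in other genes. Both are what counting over whole spans, introns included, would give. The order of genes on this scale is therefore approximate, more so for genes with long introns. *Ccl4* was highest among the ligands tested at 396 CPM per kb, followed by *Cxcl2* at 305, *Ccl3* at 247 and *Ccl5* at 200 CPM per kb. *Ccl4* and *Ccl3* are the macrophage inflammatory proteins, *Ccl5* attracts T cells and monocytes, and *Cxcl2* attracts neutrophils through Cxcr2. *Ccl4* lay above 99.6% of all genes tested on this scale. *Cxcl16*, a transmembrane chemokine of macrophages that binds Cxcr6, reached 117 CPM per kb, *Ccl7* 116 and *Ccl12* 81.0 CPM per kb. *Cxcl9* followed at 21.1 CPM per kb. At the lower end stood *Cxcl3* at 0.896, *Cxcl13* at 0.783 and *Cxcl5* at 0.441 CPM per kb.

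**Figure D1:**
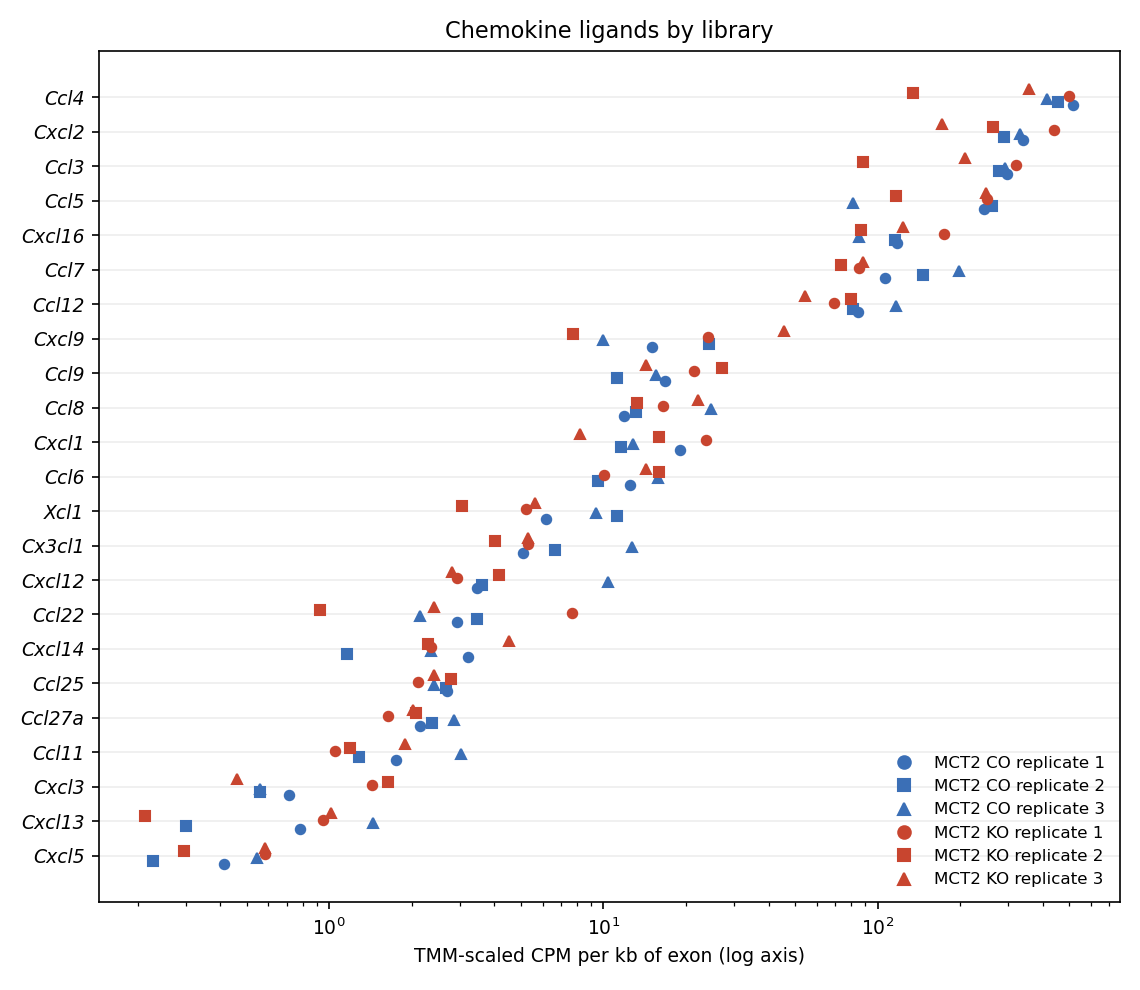
Level of each of the 23 ligands tested in each library, in TMM-scaled CPM per kb of exon on a log axis, ordered by the mean level. Blue symbols are the 3 MCT2 CO libraries and red symbols the 3 MCT2 KO libraries. *Ccl4* stands at the top with a mean of 396 CPM per kb, and for *Ccl7* and *Xcl1* all red symbols lie to the left of all blue ones.

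Receptors were less abundant than the leading ligands. *Ccr1*, a receptor for Ccl3, Ccl5 and Ccl9, led at 55.2 CPM per kb, and *Cx3cr1*, the fractalkine receptor of monocytes and macrophages, followed at 53.2 CPM per kb. *Cxcr4*, the receptor of Cxcl12, reached 37.3 and *Ccr2* 19.3 CPM per kb. All 4 are found on monocytes and macrophages. Of the span of *Cx3cr1*, 53.18% lies in the spans of other listed genes, but only 0.27% of its exons do. *Ccr7*, the receptor that takes mature dendritic cells to lymph nodes, had 8.15 CPM per kb, and *Cxcr3* of activated T and NK cells had 2.82 CPM per kb. *Cxcr2*, the main chemokine receptor of neutrophils, had 0.291 CPM per kb.

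In the comparison of MCT2 KO with MCT2 CO, no ligand and no receptor passed the test. Genes counted as called reached an adjusted p of 0.05 or less by the quasi-likelihood test of edgeR and differed by 0.58 or more on the log2 scale in either direction. This called 0 of 23 ligands and 0 of 15 receptors, beside 0 of 13485 genes tested (0%). The smallest adjusted p was 0.377 among the ligands, 0.574 among the receptors and 0.1445 among all genes. DESeq2 on all genes with a count called 1 ligand, *Ccl7*, and 0 receptors, beside 83 of 14202 genes (0.584%). An unadjusted p below 0.05 was reached by 4 ligands, all lower in MCT2 KO, which is 17.4% of those tested, beside 5.6% of all genes lower and 3.77% higher. No receptor reached it, beside 9.37% of all genes in either direction. The 4 ligands were *Ccl7*, *Xcl1*, *Ccl12* and *Cx3cl1*.

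The fitted differences went both ways in each class. Of the ligands, 11 had a higher and 12 a lower fitted level in MCT2 KO, with log2 fold changes from -0.96 to 0.95 and a median of -0.087. Of the receptors, 7 had a higher and 8 a lower fitted level, with log2 fold changes from -1.11 to 0.47 and a median of -0.15. Over all genes tested the median was 0.00037, with 49.9% below 0. Without MCT2 KO replicate 2 the receptor median was 0.078, and without both libraries that stood apart it was 0.18. Without MCT2 KO replicate 1 the receptor median was -0.23. The groups did not overlap for 4 ligands, *Ccl7*, *Xcl1*, *Ccl12* and *Ccl27a*, with MCT2 KO below in each, beside 8.77% of all genes below and 7.07% above. For 0 receptors did the groups separate.

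**Figure D2:**
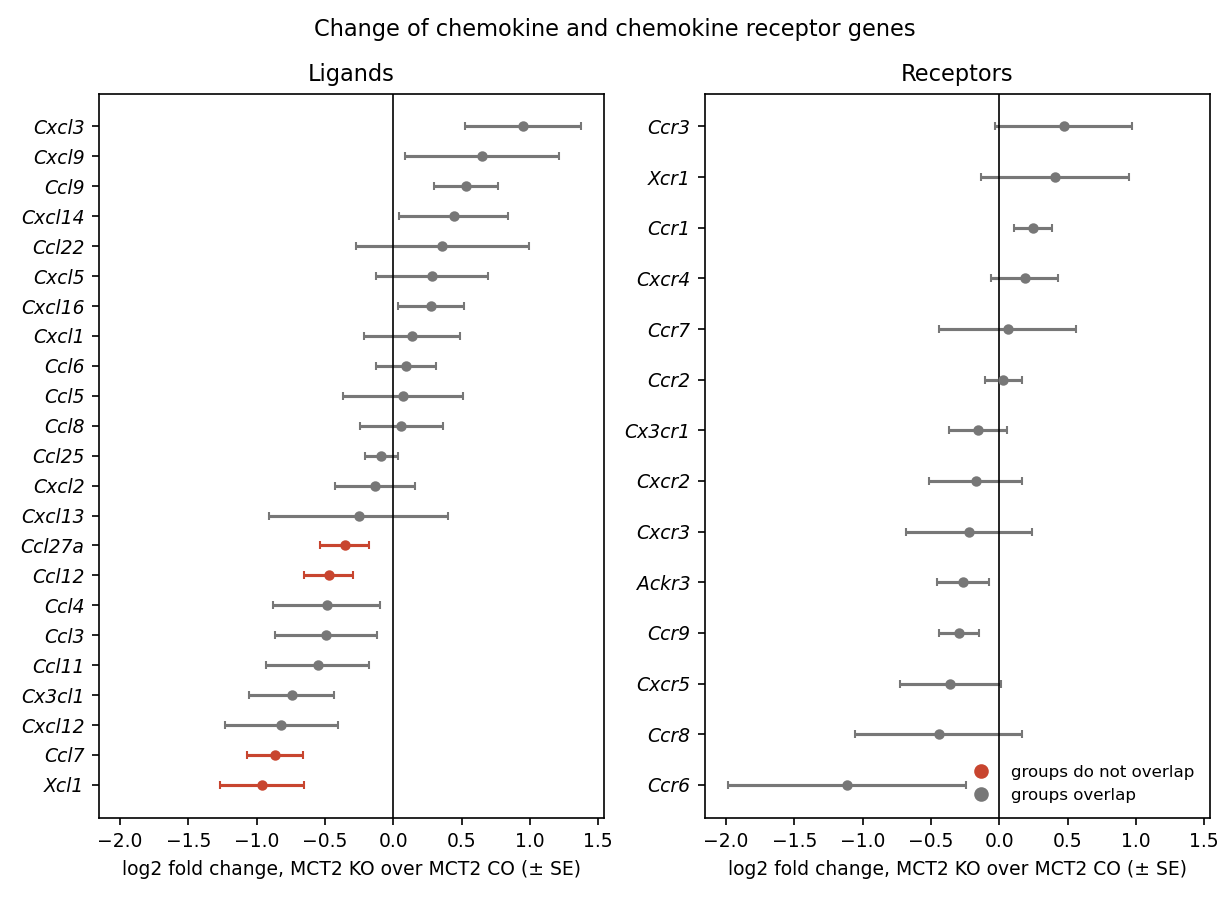
Fitted log2 fold change of MCT2 KO over MCT2 CO with its SE for the 23 ligands on the left and 14 of the receptors tested on the right, on a linear axis. Red points mark genes whose groups do not overlap. The 4 red points are *Ccl27a*, *Ccl12*, *Ccl7* and *Xcl1*, all below 0, and no receptor is red.

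The summed level of the members that could be measured did not separate the groups. The 7 genes inside the span of another gene, *Ccl2* and *Cxcl10* among them, enter these sums as 0. All 38 ligands listed, with those too low to test, summed to 2245, 2122 and 2064 CPM in MCT2 CO and to 2661, 1439 and 1786 CPM in MCT2 KO. The means were 2144 ± 92.0 and 1962 ± 630 CPM (SD, n = 3 each), and a two-sided exact permutation test gave p = 0.7, where 0.1 is the smallest p that 3 against 3 allows. All 23 receptors listed summed to 954.5, 884 and 869.5 CPM in MCT2 CO and to 1169, 730.2 and 895.4 CPM in MCT2 KO, with p = 0.8 by the same exact permutation test. In both classes the 3 MCT2 CO libraries lay close together, and MCT2 KO held both the highest library, replicate 1, and the lowest, replicate 2. Fewer cells of a type and less RNA per cell cannot be told apart in such bulk samples.

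The Ccr2 axis brings monocytes out of the marrow and into inflamed tissue. *Ccl7* (monocyte chemoattractant protein 3) lies on the plus strand of chromosome 11 from 82045712 to 82047525, next to *Ccl2*. It measured 85.4, 117 and 159 CPM in MCT2 CO and 68.2, 59.0 and 70.9 CPM in MCT2 KO. All 3 MCT2 KO libraries lay below all 3 MCT2 CO libraries, and MCT2 CO replicate 3 was highest. The log2 fold change was -0.87 ± 0.20 (SE), with an adjusted p of 0.377 by edgeR and of 0.0106 by DESeq2 on all genes with a count. Leaving out each library in turn moved it between -1.06 and -0.62, the latter without MCT2 CO replicate 3.

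*Ccl12* (monocyte chemoattractant protein 5), a mouse ligand of Ccr2, lies in the same cluster on the plus strand from 82101845 to 82103400. It measured 45.5, 43.7 and 62.6 CPM in MCT2 CO and 37.2, 42.9 and 29.2 CPM in MCT2 KO. The groups did not overlap, but MCT2 KO replicate 2 and MCT2 CO replicate 2 were nearly level. The log2 fold change was -0.47 ± 0.18 (SE), with an adjusted p of 0.497 by edgeR and 0.394 by DESeq2. It was -0.29 without MCT2 CO replicate 3 and -0.61 without MCT2 KO replicate 2. *Ccl8*, in the same cluster, measured 6.07, 6.73 and 12.6 CPM in MCT2 CO and 8.43, 6.75 and 11.3 CPM in MCT2 KO, a log2 fold change of 0.060. *Ccl11* (eotaxin), which attracts eosinophils through Ccr3, measured 1.90, 1.39 and 3.27 CPM against 1.13, 1.29 and 2.05 CPM, a log2 fold change of -0.55. The fitted value of *Ccl11* was -0.15 without MCT2 CO replicate 3 and -0.84 without MCT2 KO replicate 3. The receptor itself, *Ccr2*, measured 106, 131 and 149 CPM in MCT2 CO and 142, 134 and 120 CPM in MCT2 KO. Its groups overlapped fully, and the log2 fold change was 0.031 ± 0.13 (SE). The marker lists beside this axis differed in direction. Of the fibroblast markers, 8 of 8 had a lower fitted level in MCT2 KO. Of these, 4 were at an unadjusted p below 0.05 by edgeR, beside 5.6% of all genes. DESeq2 called 3 of the 8, beside 0.584% of all genes, and the fibroblast sums of the groups did not overlap. The 7 monocyte markers divided into 4 higher and 3 lower. An unadjusted p below 0.05 by edgeR was reached by 2 of the higher, beside 3.77% of all genes, and by 0 of the lower. These were *F13a1* at a log2 fold change of 1.48, with all MCT2 KO libraries above MCT2 CO, and *Chil3* at 0.98 with overlapping groups. The lowest was *Ly6c2* at -0.60. The part of these lists in the values of *Ccl7* and *Ccl12* was not tested.

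The macrophage inflammatory proteins and their relatives were abundant, and MCT2 KO replicate 2 was low in several of them. *Ccl3*, on the minus strand of chromosome 11 from 83647844 to 83649355, measured 227, 212 and 223 CPM in MCT2 CO and 244, 67.8 and 160 CPM in MCT2 KO. *Ccl4*, its neighbor on the plus strand from 83662584 to 83664683, measured 341, 300.5 and 274 CPM in MCT2 CO and 330.0, 88.6 and 235 CPM in MCT2 KO. In both genes MCT2 KO replicate 1 was at the level of MCT2 CO and replicate 2 was far below every other library. The log2 fold change was -0.49 ± 0.37 (SE) for *Ccl3* and -0.49 ± 0.39 (SE) for *Ccl4*, and their adjusted p values were 0.711 and 0.724 by edgeR. Without MCT2 KO replicate 2 these values were -0.13 and -0.11, and without MCT2 KO replicate 1 they were -0.95 and -0.91.

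*Ccl5* (RANTES), made by T cells, NK cells and macrophages, measured 234, 250.3 and 77.8 CPM in MCT2 CO and 239.5, 112 and 238 CPM in MCT2 KO. Each group held 1 low library, MCT2 CO replicate 3 and MCT2 KO replicate 2, and the log2 fold change was 0.069 ± 0.44 (SE). It was -0.30 without MCT2 CO replicate 3 and 0.35 without MCT2 KO replicate 2. *Ccl9*, a mouse ligand of Ccr1, measured 51.2, 34.3 and 47.2 CPM in MCT2 CO and 65.2, 82.7 and 43.5 CPM in MCT2 KO. Its log2 fold change was 0.53 ± 0.24 (SE), with an adjusted p of 0.541, and 2 of 3 MCT2 KO libraries lay above every MCT2 CO library. *Ccl6*, the neighbor of *Ccl9*, had a log2 fold change of 0.095. The receptor *Ccr1* measured 146, 154 and 129 CPM in MCT2 CO and 201, 169.7 and 138 CPM in MCT2 KO, a log2 fold change of 0.25 ± 0.14 (SE) with an adjusted p of 0.619. The groups of *Ccr1* overlapped in 1 MCT2 KO library. Macrophage markers stood beside these values with 12 of 12 higher in MCT2 KO by the fitted level. Of these, 1 was at an unadjusted p below 0.05 by edgeR, beside 3.77% of all genes higher. The part of these markers was not tested.

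The Cxcr2 ligands, which draw neutrophils, are printed with the bases before their starts because the genes are neighbors on chromosome 5 and share a match to the motif of NF-kB, a factor that drives inflammatory genes. The windows are the 200 bases before the RefSeq start on GRCm38.p6, plus strand, chr5:90891045-90891244 for *Cxcl1*, chr5:90903699-90903898 for *Cxcl2* and chr5:90785901-90786100 for *Cxcl3*. Capitals mark matches to the kappaB motif GGGANNNNCC, which reads GGNNNNTCCC on the other strand, where overlapping matches run together.
Cxcl1: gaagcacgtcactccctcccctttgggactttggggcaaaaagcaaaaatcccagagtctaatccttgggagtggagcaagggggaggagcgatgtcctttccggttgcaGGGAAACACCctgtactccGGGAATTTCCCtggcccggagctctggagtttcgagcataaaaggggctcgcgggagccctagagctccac
Cxcl2: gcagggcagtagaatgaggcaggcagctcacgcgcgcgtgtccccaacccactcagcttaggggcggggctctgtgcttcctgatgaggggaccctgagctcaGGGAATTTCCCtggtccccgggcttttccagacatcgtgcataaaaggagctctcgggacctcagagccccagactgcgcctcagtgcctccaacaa
Cxcl3: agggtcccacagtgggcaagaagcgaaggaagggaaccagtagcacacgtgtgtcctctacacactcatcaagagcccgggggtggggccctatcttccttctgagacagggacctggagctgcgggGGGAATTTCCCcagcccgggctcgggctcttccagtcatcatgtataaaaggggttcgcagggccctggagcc
The run GGGAATTTCCC stands in all 3, beginning 71, 97 and 73 bases before the start of *Cxcl1*, *Cxcl2* and *Cxcl3*. RefSeq promoters were at hand for 47 of the 61 members. The motif occurred in 10 of 28 ligand promoters (35.7%), in 5 of 19 receptor promoters (26.3%) and in 3978 of 27025 promoters of all genes (14.7%). The TATA motif TATAAA, or TTTATA on the other strand, occurred in 8 of 28 ligand promoters (28.6%), 4 of 19 receptor promoters (21.1%) and 10.6% of all. The AP-1 motif TGANTCA occurred in 7.14%, 10.5% and 5.55%. A match is a run of letters and not a measured binding site.

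The levels behind these promoters were as follows. *Cxcl2* measured 699, 596 and 684 CPM in MCT2 CO and 908, 543 and 354 CPM in MCT2 KO, a log2 fold change of -0.13 ± 0.29 (SE). *Cxcl1* measured 35.6, 21.7 and 24.0 CPM in MCT2 CO and 44.2, 30.0 and 15.3 CPM in MCT2 KO, a log2 fold change of 0.14 ± 0.35 (SE). In both genes the highest and the lowest of the 6 libraries were MCT2 KO replicate 1 and MCT2 KO replicate 3. *Cxcl3* measured 2.50, 1.96 and 1.96 CPM in MCT2 CO and 5.03, 5.74 and 1.61 CPM in MCT2 KO. Its log2 fold change of 0.95 ± 0.42 (SE) was the highest among the 38 members tested, with an adjusted p of 0.543. MCT2 KO replicates 1 and 2 lay above every MCT2 CO library and replicate 3 lay below. *Cxcl5* stayed at 11 to 27 counts per library, a log2 fold change of 0.28. Their receptor *Cxcr2* had 18 to 31 counts per library, with a log2 fold change of -0.17 ± 0.34 (SE), and the related receptor *Cxcr1* had 1 count over the 6 libraries. All 9 neutrophil markers tested had a higher fitted level in MCT2 KO. Of these, 6 were at an unadjusted p below 0.05 by edgeR, beside 3.77% of all genes higher. DESeq2 called 5 of the 9, beside 0.584% of all genes. The sums over all 12 listed overlapped at 436 to 647 CPM in MCT2 CO and 470.3 to 835 CPM in MCT2 KO. *Il1r2* made up the largest part of them, with means of 382 and 446 CPM. *S100a8*, *S100a9*, *Retnlg*, *Ngp*, *Ltf* and *Mmp8* had all MCT2 KO libraries above MCT2 CO, beside 7.07% of all genes. The groups overlapped for the other markers tested, *Il1r2*, *Csf3r* and *Trem1*. *G0s2* was at 0 in all libraries, and the defining marker *Ly6g* had 0 to 4 counts per library. Genes of the dissociation response, which tissue digestion induces, had a lower fitted level in MCT2 KO in 10 of 12 cases. Of these, 4 were at an unadjusted p below 0.05 by edgeR, beside 5.6% of all genes lower. DESeq2 called 1, *Hspa1b*, beside 0.584% of all genes. *Junb*, *Ier2*, *Hspa1a* and *Hspa1b* had all MCT2 KO libraries below MCT2 CO, beside 8.77% of all genes, and the others overlapped. The sums overlapped at 13460 to 15870 CPM in MCT2 CO and 10980 to 14340 CPM in MCT2 KO. The part of either list in these values was not tested.

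Among the 7 ligands tested whose promoter held the kappaB motif, 4 had a higher and 3 a lower fitted level in MCT2 KO, with a median log2 fold change of 0.14. Among the 10 tested with a RefSeq promoter and no match, 4 were higher and 6 lower, with a median of -0.28. *Ccl12* belonged to the latter. These are descriptions of a small family, and no test was made of them.

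*Cxcl12* and *Cx3cl1* were highest in a single control library. *Cxcl12*, which holds leukocytes and stem cells in place through Cxcr4, measured 28.3, 29.5 and 85.0 CPM in MCT2 CO and 24.0, 33.9 and 22.9 CPM in MCT2 KO. MCT2 CO replicate 3 was far above the other 5 libraries, which overlapped. The log2 fold change was -0.82 ± 0.41 (SE) with an adjusted p of 0.582 by edgeR. It was -0.10 without MCT2 CO replicate 3 and -1.085 without MCT2 CO replicate 1. *Cx3cl1* (fractalkine), a membrane-bound ligand that holds Cx3cr1-bearing monocytes, measured 20.1, 26.2 and 50.01 CPM in MCT2 CO and 20.8, 15.8 and 20.9 CPM in MCT2 KO. Its groups overlapped at MCT2 CO replicate 1. The log2 fold change of -0.74 ± 0.31 (SE) had an adjusted p of 0.527 by edgeR. It was -0.27 without MCT2 CO replicate 3 and -0.99 without MCT2 CO replicate 1. Fibroblast markers followed the same library, with sums of 2070, 2263 and 3424 CPM in MCT2 CO and 1837, 1842 and 1728 CPM in MCT2 KO, and none of the 8 was at 0. Their part in the values of *Cxcl12* and *Cx3cl1* was not tested.

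*Cxcl14*, a constitutive chemokine of epithelia and stroma, measured 5.84, 2.12 and 4.29 CPM in MCT2 CO and 4.28, 4.21 and 8.24 CPM in MCT2 KO, a log2 fold change of 0.44 with overlapping groups. It was 0.059 without MCT2 KO replicate 3 and 0.795 without MCT2 CO replicate 1. The receptors of these ligands had smaller fitted differences. *Cxcr4* measured 78.8, 61.7 and 48.6 CPM in MCT2 CO and 97.2, 52.4 and 65.8 CPM in MCT2 KO, a log2 fold change of 0.19 ± 0.24 (SE). *Ackr3*, the atypical receptor that removes Cxcl12, measured 4.34, 3.92 and 3.84 CPM against 3.23, 2.86 and 4.02 CPM, a log2 fold change of -0.26 ± 0.19 (SE). *Cx3cr1* measured 262.5, 217 and 278 CPM in MCT2 CO and 310.1, 174 and 197 CPM in MCT2 KO, a log2 fold change of -0.15 ± 0.21 (SE). The groups overlapped for each of the 3 receptors, and their adjusted p values by edgeR were 0.837, 0.693 and 0.847. The fitted value of *Cx3cr1* was 0.00745 without MCT2 KO replicate 2.

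The Xcl1 and Xcr1 axis links NK and CD8 T cells with cross-presenting dendritic cells. *Xcl1* (lymphotactin), on the minus strand of chromosome 1 from 164931644 to 164935527, measured 3.24, 5.88 and 4.93 CPM in MCT2 CO and 2.73, 1.6 and 2.93 CPM in MCT2 KO. The groups did not overlap. Its log2 fold change of -0.96 ± 0.31 (SE) was the lowest among the ligands tested, with an adjusted p of 0.436 by edgeR and 0.171 by DESeq2 on all genes with a count. It stayed between -1.17 and -0.72 with each library left out in turn. *Xcr1* measured 2.94, 3.65 and 2.75 CPM in MCT2 CO and 4.61, 1.07 and 6.83 CPM in MCT2 KO, so that MCT2 KO held both extremes, and its log2 fold change was 0.41 ± 0.54 (SE), with 0.88 without MCT2 KO replicate 2 and -0.15 without MCT2 KO replicate 3. NK cell markers summed to 51.0 to 86.1 CPM in MCT2 CO and 61.3 to 116 CPM in MCT2 KO, with 2 of 8 higher and 6 lower by the fitted level. The 2 higher were *Gzmb* and *Prf1*. *Gzma*, *Klrb1c* and *Ncr1* had all MCT2 KO libraries below MCT2 CO, beside 8.77% of all genes. DESeq2 on all genes with a count called 1 of the list, beside 0.584% of all genes. This was *Gzma*, lower in MCT2 KO with an adjusted p of 0.00718 by DESeq2. Dendritic cell markers summed to 249.6 to 267 CPM and 206 to 296.5 CPM, with 1 of 9 higher and 8 lower. No marker of either list was at 0 in all libraries, and the part of these lists was not tested.

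Genes of the interferon and lymphocyte axes were spread widely within MCT2 KO. *Cxcl9*, which interferon gamma induces and which attracts T cells through Cxcr3, measured 45.4, 73.3 and 29.95 CPM in MCT2 CO and 72.7, 23.3 and 137 CPM in MCT2 KO. MCT2 KO held its highest and its lowest library, and the log2 fold change was 0.65 ± 0.57 (SE) with an adjusted p of 0.753. It was 1.09 without MCT2 KO replicate 2 and -0.043 without MCT2 KO replicate 3. *Cxcr3* measured 5.10, 5.04 and 5.57 CPM in MCT2 CO and 6.29, 1.41 and 5.91 CPM in MCT2 KO. Here the MCT2 CO libraries were close together and MCT2 KO replicate 2 was alone below them. The log2 fold change was -0.22 ± 0.46 (SE), and 0.22 without MCT2 KO replicate 2. *Ccr7* showed the same low library, with 13.8, 19.1 and 14.3 CPM in MCT2 CO and 27.5, 4.85 and 17.2 CPM in MCT2 KO, and its log2 fold change of 0.062 became 0.51 without it. T cell markers summed to 48.2, 73.5 and 52.8 CPM in MCT2 CO and to 64.9, 16.2 and 98.0 CPM in MCT2 KO, with 6 of 10 higher by the fitted level and none at 0. B cell markers summed to 87.5, 101 and 104 CPM and to 108.5, 28.3 and 117 CPM, with 1 of 8 tested higher and 7 lower. Of these, 4 were lower at an unadjusted p below 0.05 by edgeR, beside 5.6% of all genes. DESeq2 called 2 of those tested, beside 0.584%. *Blk*, *Cd79a*, *Igkc* and *Ms4a1* had all 3 MCT2 KO libraries below MCT2 CO, beside 8.77% of all genes. MCT2 KO replicate 2 had the lowest sum in both lists, and their part in the receptor values was not tested.

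**Figure D3:**
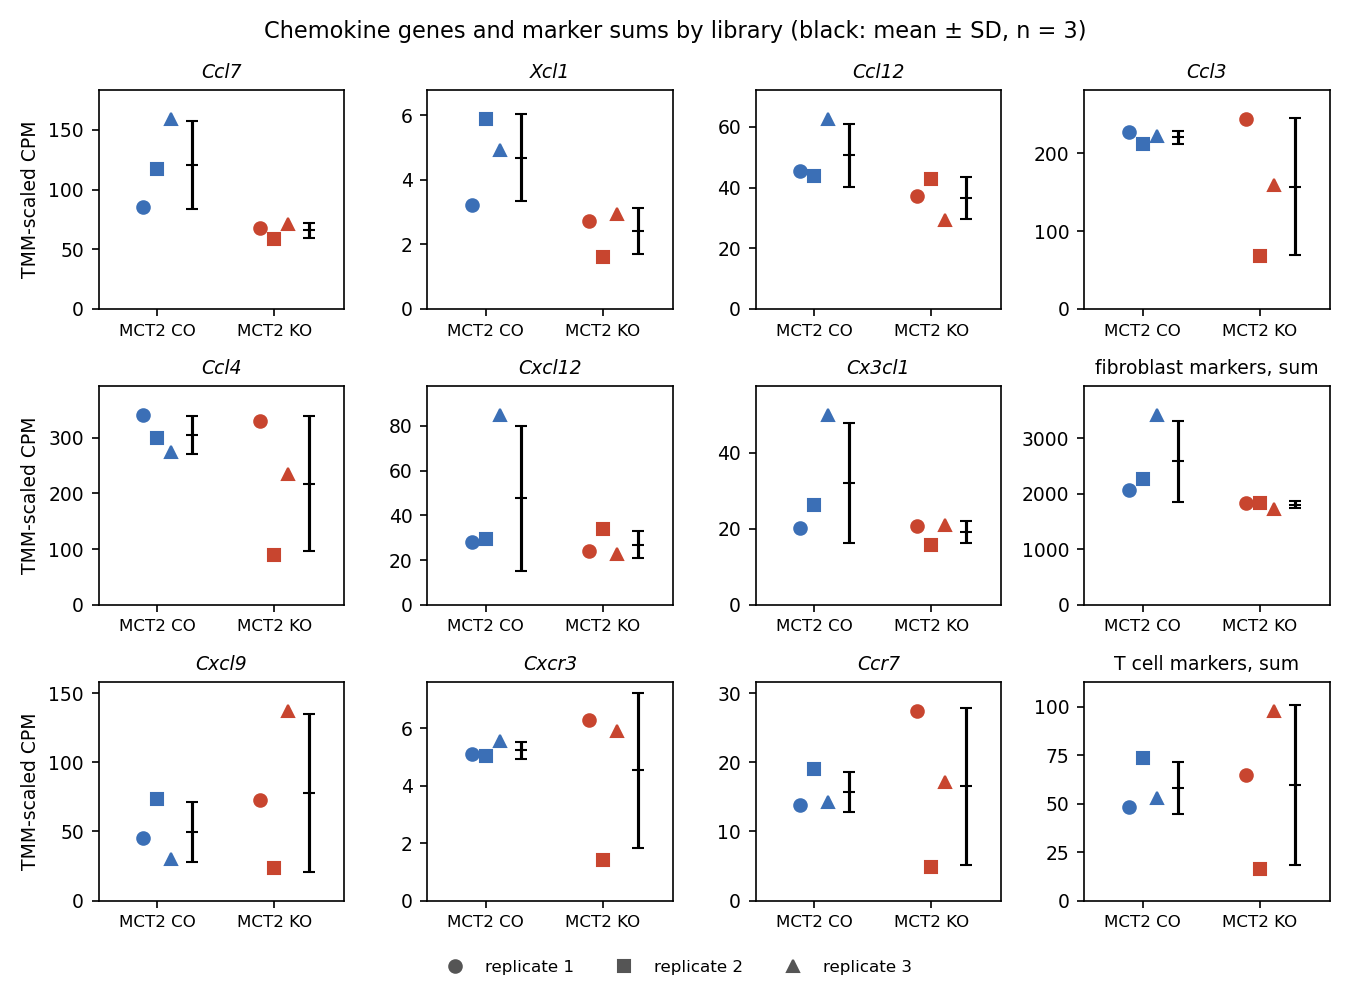
TMM-scaled CPM by library for 10 member genes and for the summed fibroblast and T cell markers, on linear axes from 0. Symbols are libraries, shaped by replicate number, and the black bars give mean ± SD of 3 libraries. *Ccl7*, *Xcl1* and *Ccl12* have all MCT2 KO libraries below MCT2 CO, *Cxcl12* and the fibroblast sum share a high MCT2 CO replicate 3, and *Ccl3*, *Ccl4*, *Cxcr3*, *Ccr7* and the T cell sum share a low MCT2 KO replicate 2.

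Other members of the lymphoid and tissue axes were low. *Ccl22*, which draws regulatory T cells through Ccr4, measured 6.77, 8.08 and 5.00 CPM in MCT2 CO and 17.9, 2.15 and 5.62 CPM in MCT2 KO, and its log2 fold change of 0.36 became -0.78 without MCT2 KO replicate 1. *Cxcl13*, the B cell attractant, had 8 to 44 counts per library and a log2 fold change of -0.25 ± 0.66 (SE). Its receptor *Cxcr5* had 10 to 20 counts per library and a log2 fold change of -0.36 ± 0.37 (SE). The value of *Cxcr5* was -0.014 and that of *Cxcl13* 0.35 without MCT2 CO replicate 3. Without MCT2 CO replicate 2 they were -0.53 and -0.64. *Ccr6*, the receptor of Ccl20, had 7, 12 and 13 counts in MCT2 CO and 11, 0 and 3 in MCT2 KO, with a log2 fold change of -1.11 ± 0.87 (SE) and an adjusted p of 0.718. That value was -0.43 without MCT2 KO replicate 2 and -2.77 without MCT2 KO replicate 1. *Ccr8*, found on regulatory T cells, had 15, 23 and 18 counts against 23, 4 and 12, a log2 fold change of -0.44 ± 0.61 (SE), and 0.078 without MCT2 KO replicate 2. *Ccr3*, the eosinophil receptor, had 4 to 25 counts per library and a log2 fold change of 0.47 ± 0.50 (SE), between 0.10 without MCT2 CO replicate 2 and 0.79 without MCT2 CO replicate 3.

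*Cxcl16* measured 354, 348 and 259 CPM in MCT2 CO and 526, 262 and 375 CPM in MCT2 KO, a log2 fold change of 0.27 ± 0.24 (SE), and 0.49 without MCT2 KO replicate 2. Part of this gene, 18.27% of its exons, lies in the span of *Zmynd15*. *Ccl27a*, a chemokine of skin that binds Ccr10, measured 5.10, 5.65 and 6.77 CPM in MCT2 CO and 3.90, 4.94 and 4.82 CPM in MCT2 KO. Its groups did not overlap, with a log2 fold change of -0.36 ± 0.18 (SE) and an adjusted p of 0.577, but 45.0% of its 50-base stretches are shared with near-identical copies and its value is uncertain. *Ccl25*, the thymic and gut ligand of Ccr9, had a log2 fold change of -0.087 ± 0.12 (SE). *Ccr9* measured 8.61, 8.15 and 9.44 CPM in MCT2 CO and 8.18, 6.54 and 6.71 CPM in MCT2 KO, a log2 fold change of -0.29 ± 0.15 (SE) and an adjusted p of 0.574, the smallest among the receptors. For *Ccr9*, 20.1% of such stretches are shared with other genes.

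Single libraries were extreme for many members of both classes. MCT2 KO replicate 2 was the lowest of the 6 libraries for 10 of 15 receptors (66.7%) and for 8 of 23 ligands (34.8%), against 22.7% of all genes tested. MCT2 KO replicate 1 was the highest for 7 of 15 receptors (46.7%), against 20.4% of all genes. MCT2 CO replicate 3 was the highest for 8 of 23 ligands (34.8%), against 24.9% of all genes. These shares describe single libraries and were not tested.

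**Figure D4:**
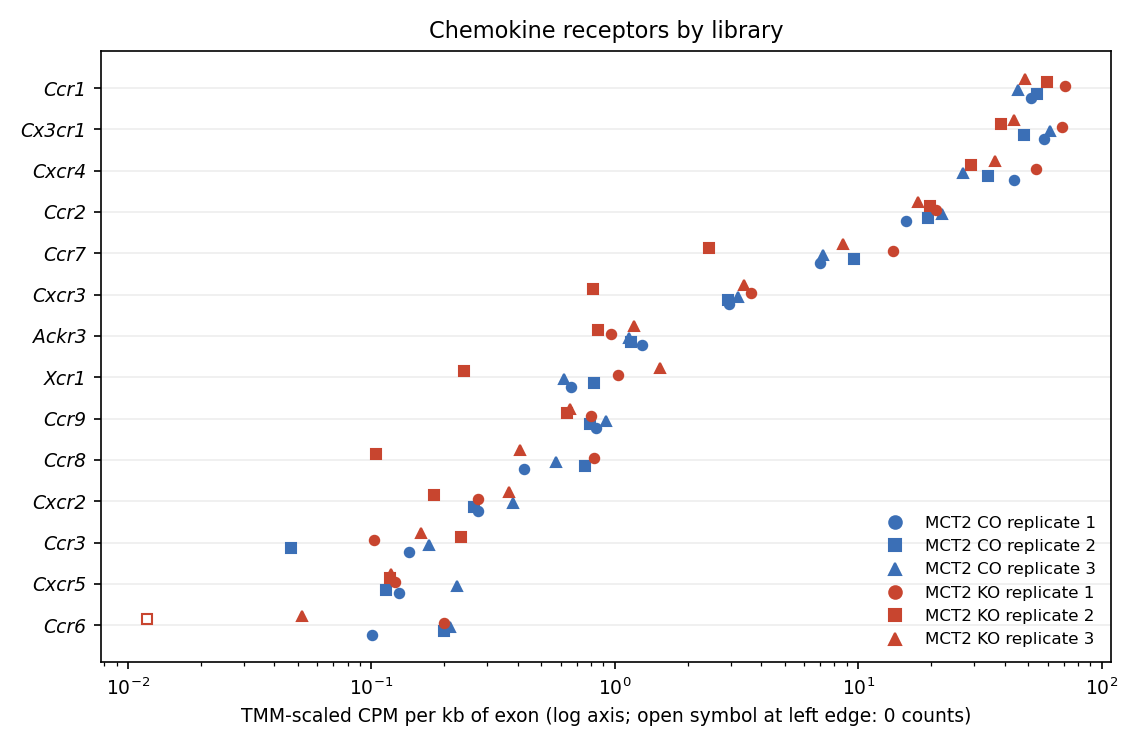
Level of 14 of the receptors tested in each library, in TMM-scaled CPM per kb of exon on a log axis, ordered by the mean level; blue symbols are MCT2 CO and red symbols MCT2 KO. *Ccr1* stands at the top with a mean of 55.2 CPM per kb, the red squares of MCT2 KO replicate 2 lie leftmost for 9 of the 14 receptors plotted, and the open square of *Ccr6* marks a library with 0 counts.

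None of the genes that act behind the receptors passed the test. Chemokine receptors signal through inhibitory G proteins to PI3K gamma, Rac and the actin skeleton, and arrestins end the signal. In 8 lists of such genes, edgeR and DESeq2 each called 0 of 88 tested, beside 0% and 0.584% of all genes. The medians of the lists ran from -0.032 to 0.12. An unadjusted p below 0.05 was reached by 3 genes (3.41%), fewer than the 9.37% of all genes, so that the 3 are given as values only. *Pik3r6*, a regulatory subunit of PI3K gamma, measured 12.3, 14.3 and 10.2 CPM in MCT2 CO and 23.9, 14.7 and 16.4 CPM in MCT2 KO, a log2 fold change of 0.58 ± 0.20 (SE) with an adjusted p of 0.475. Its groups did not overlap, which held for 15.8% of all genes tested. The same was true of *Arrb1*, an arrestin, at 0.26 ± 0.11 (SE) with an adjusted p of 0.533. It was also true of *Nfkbib*, *Gnai2* and other genes of these lists. *Nfkbib*, an inhibitor of NF-kB, measured -0.40 ± 0.16 (SE) on the log2 scale, with an adjusted p of 0.513, and 35.04% of its exons lie in another span. *Gnai2*, the main inhibitory G protein subunit of leukocytes, measured 473 ± 7.86 CPM in MCT2 CO and 539.8 ± 50.2 CPM in MCT2 KO (SD, n = 3), a log2 fold change of 0.19.

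Of 17 related genes tested outside the symbol rule, edgeR and DESeq2 each called 0, beside 0% and 0.584% of all genes. An unadjusted p below 0.05 by edgeR was reached by 2 (11.8%), near the 9.37% of all genes. Fitted levels were higher for 11 and lower for 6, with a median log2 fold change of 0.12. *Pf4* (Cxcl4), a chemokine of platelets and of some macrophages, measured 18.3, 19.0 and 28.2 CPM in MCT2 CO and 45.2, 70.3 and 18.8 CPM in MCT2 KO. MCT2 KO replicates 1 and 2 lay above every MCT2 CO library and replicate 3 did not, and the log2 fold change was 1.04 ± 0.41 (SE) with an adjusted p of 0.510. *C5ar1*, the complement C5a receptor of myeloid cells, had a log2 fold change of 0.37 ± 0.14 (SE) with an adjusted p of 0.497. *Cmklr1*, the chemerin receptor, had a log2 fold change of 0.21 ± 0.11 (SE) with an adjusted p of 0.582. The formyl peptide receptor *Fpr2* had 2 counts in all and lies to 97.84% of its exons inside another span.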

How the data were processed

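Poly-A RNA of CD11b+ tumor cells was sequenced from 3 MCT2 CO and 3 MCT2 KO samples with the TruSeq Stranded mRNA kit on an Illumina HiSeq. Per the submitters' processing notes, the authors used FastQC 0.12.0, MultiQC 1.28, STAR 2.7.11b with GRCm38, featureCounts 2.1.1 and DESeq2 1.18.1. The deposited values are raw read counts per gene, without normalization or pooling. The annotation, feature type and strand setting of the counting are not given in the sources used here. Genes wholly inside the span of an antisense gene, such as *Ccl2* and *Cxcl10*, had 0 counts, so reads there were not told apart by strand.

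Each library's group and replicate number come from its label. Counts of 25701 genes were kept as deposited, and filterByExpr (minimum count 10, minimum total count 15) left 13485. These were scaled by TMM and compared by the quasi-likelihood test of edgeR 4.0.16 without covariates in R 4.3.3, with Benjamini-Hochberg adjustment over all 13485. The SE was taken as the absolute log2 fold change over the square root of F. Calls needed an adjusted p of 0.05 or less and a difference of 0.58 or more on the log2 scale. DESeq2 1.42.0, limma 3.58.1 (voom), other scalings and filters, a replicate block and the removal of each library were alternatives. The fits were tested on simulated counts in which 200 genes differed by 2 on the log2 scale. Of these, edgeR recovered 96.5% and DESeq2 95.5%. Of the calls, 7.21% were false by edgeR and 15.1% by DESeq2. Total counts were 24863611 to 31713704, and counting error matters only for genes of a few counts.

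The positions in the table do not match GRCm38, so positions, exon lengths and overlaps were taken from GENCODE M21 (GRCm38) by Ensembl identifier, which matched 25594 genes. Python 3.11.15 was used for shared 50-base stretches and for motifs in the 200 bases before RefSeq starts. The members, gene lists and tests were chosen with earlier results of these data known. Named with values are the 10 ligands and 8 receptors with the smallest p, the 8 ligands and 6 receptors of highest level, the members of 12 ligand and receptor axes, the untested members, and the 3 genes with the smallest p in the signalling and in the related list. *Gnai2*, *Fpr2*, *Cxcl11*, *Cxcl14*, *Ccl6*, *Ccl8*, *Ccl25* and *Ccr8* lie outside this rule and were added after their values were seen. The counts, sums and medians over receptors include 1 tested receptor that is not reported here by itself.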

Additional observations from a re-analysis of the deposited data

How the results depend on the processing

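The number of genes called over all genes, 0 by edgeR on the filtered genes, was 2 without a filter, 79 by DESeq2 on the filtered genes (34 higher and 45 lower), 83 by DESeq2 on all genes with a count (33 higher and 50 lower) and 10 without both MCT2 CO replicate 3 and MCT2 KO replicate 2 (9 higher and 1 lower), an alternative added after seeing the data. Leaving out each library in turn gave 0 to 2, and an unadjusted p below 0.05 held for 1264. Ligands called were 1 by DESeq2 on the filtered genes and 1 on all genes, *Ccl7* in both, and 4 by the unadjusted p; the signalling list gave 5 by the unadjusted p, its related genes included. Receptors called were 0 under every alternative run. *Slc16a7* was called by DESeq2 at -1.05 (adjusted p 0.00953) on the filtered genes and at -1.04 (adjusted p 0.00908) on all genes, and stayed between -1.30 and -0.85 with each library left out. The median log2 fold change of the receptors ran from -0.23 to 0.078 with each library left out and was 0.18 without both libraries, and that of the ligands ran from -0.25 to -0.056. The cause of these shifts was not tested.

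Scaling did not reverse any member: DESeq2 size factors and upper-quartile scaling in edgeR kept the direction of every member reported, and the median of all genes lay between -0.0028 and 0.0075 under the alternatives run. With voom, *Ccl22* turned to -0.22, *Ccr7* to -0.33 and *Xcr1* to -0.039. Without both libraries that stood apart, *Ccl5* turned to -0.020, *Cxcl13* to 0.82, *Ccr8* to 0.073, *Cx3cr1* to 0.081, *Cxcr2* to 0.26 and *Cxcr3* to 0.27. Leaving out each library reversed 18 of the members reported, none of them past the threshold: *Ccl22* ran from -0.78 to 0.83, *Ccl25* from -0.19 to 0.015, *Ccl5* from -0.30 to 0.35, *Ccl6* from -0.069 to 0.29, *Ccl8* from -0.15 to 0.46, *Cxcl1* from -0.24 to 0.46, *Cxcl13* from -0.64 to 0.35, *Cxcl16* from -0.0012 to 0.49, *Cxcl2* from -0.55 to 0.14 and *Cxcl9* from -0.043 to 1.09. Of the receptors, *Ccr2* ran from -0.091 to 0.15, *Ccr7* from -0.52 to 0.51, *Ccr8* from -1.23 to 0.078, *Cx3cr1* from -0.44 to 0.00745, *Cxcr2* from -0.44 to 0.073, *Cxcr3* from -0.53 to 0.22, *Cxcr4* from -0.086 to 0.38 and *Xcr1* from -0.15 to 0.88.

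With the replicate number as a block, 0 genes were called, and *Ccl22* turned to -0.037 and *Ccr7* to -0.17. The numbers do not pair the samples: deviations from the group means of same-numbered libraries correlated at 0.22, -0.25 and -0.16 over genes. With 3 libraries a group, the fitted differences of most members lie within the spread between libraries. For members of few counts, counting error adds to that spread.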
